A study of Mus musculus with 7 samples.

Results

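Described here are 10 genes of early liver fibrosis and matrix remodelling: Ccn2, Thbs1, Thbs2, Mmp2, Col1a1, Col1a2, Col3a1, Timp1, Loxl1 and Lum. They were chosen by name, with earlier results of these data known, so their shares set beside all genes are descriptions and not tests. Their probes were found through the RefSeq accession that the scanner files give for each probe. All 10, of 32451 genes on the array, had a probe, 11 probes in all. Loxl1 had 2 probes and every other gene had 1. Of the 10, 6 were among the 1488 genes of a deposited table of processed values, and 4 (Col1a1, Timp1, Loxl1 and Thbs2) were not.

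Liver total RNA of 3 mice fed a high-fat diet (HFD) and of 4 mice fed control chow was hybridised to 1-colour Agilent arrays, 1 sample per array. The mice were male, labelled C57/BJ, and 26 weeks old after 20 weeks on the diet. No transgene or further agent is named for either group, and the labels do not say whether livers were pooled. The p-values below therefore measure the spread between these samples, which may be technical.

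The deposited files did not hold the same measurement for chow. Over the 1615 probes of the table, the Pearson r of a scanner file with its own column was at least 0.99992 for HFD, whereas it was 0.58001 to 0.58896 for the files labelled chow. Every one of 11 hepatocyte markers measured was detected well above background on all 3 HFD arrays. In the files labelled chow, 4 of the 11 (Alb, Apoa1, Cps1 and Asgr1) were not well above background in any file. HFD and chow were therefore compared in the table alone, and genes outside it are given on the HFD arrays alone. HFD and chow values were fully separated at each of the 1615 probes, so the table had been selected for this difference, and its p-values are not independent evidence. The HFD arrays lay on 3 slides and shared a scan day, but that of the chow columns is unknown, so diet and scan day cannot be told apart. Negative control spots averaged 46.9 on HFD replicate 1, whereas the other arrays had means between 29.9 and 31.4.

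Liver fibrosis is the build-up of collagen-rich matrix that stellate cells and portal fibroblasts lay down after injury. Fibrillar collagens form the scar, lysyl oxidases crosslink it, matrix metalloproteinases cut it, and tissue inhibitors of metalloproteinases block that cutting. Matricellular proteins such as the CCN family and the thrombospondins bind matrix and growth factors, and thrombospondin 1 can release active TGF-beta from its latent complex. In mice a high-fat diet is widely used to produce a fatty liver.

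RefSeq promoters (build GRCm38.p6) were found for 4 of the 10 genes. All 4 are shown, since the signals of these genes had the same order over the HFD arrays. Each sequence holds 250 bases before the annotated start and 50 after it. Capitals mark exact matches on either strand. The motifs searched were GGAATG for the TEAD factors, CAGAC for the SMAD factors, TATAAA for the TATA box and CCAAT for the CCAAT box. The AP-1 motif TGANTCA and the CArG box of SRF were searched too.
Thbs2, chr17:14694213-14694512, strand -: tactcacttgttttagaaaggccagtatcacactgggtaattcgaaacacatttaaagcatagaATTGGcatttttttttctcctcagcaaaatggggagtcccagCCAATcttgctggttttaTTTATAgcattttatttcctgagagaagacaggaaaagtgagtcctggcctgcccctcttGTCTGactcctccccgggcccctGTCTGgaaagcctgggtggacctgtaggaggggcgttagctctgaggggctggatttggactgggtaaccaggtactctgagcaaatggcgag
Col1a2, chr6:4505368-4505667, strand +: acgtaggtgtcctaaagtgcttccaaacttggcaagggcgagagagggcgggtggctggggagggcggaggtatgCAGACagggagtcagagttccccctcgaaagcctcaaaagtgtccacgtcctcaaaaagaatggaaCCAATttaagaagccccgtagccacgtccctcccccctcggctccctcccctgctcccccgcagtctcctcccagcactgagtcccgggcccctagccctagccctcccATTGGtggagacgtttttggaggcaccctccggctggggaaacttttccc
Col3a1, chr1:45311288-45311587, strand +: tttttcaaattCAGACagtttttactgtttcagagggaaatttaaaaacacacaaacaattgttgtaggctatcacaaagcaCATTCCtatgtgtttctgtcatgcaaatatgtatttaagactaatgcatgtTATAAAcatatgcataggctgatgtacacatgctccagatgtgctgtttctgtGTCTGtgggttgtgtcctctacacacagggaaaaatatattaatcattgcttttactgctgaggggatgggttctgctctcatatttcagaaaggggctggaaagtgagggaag
Timp1, chrX:20869916-20870215, strand +: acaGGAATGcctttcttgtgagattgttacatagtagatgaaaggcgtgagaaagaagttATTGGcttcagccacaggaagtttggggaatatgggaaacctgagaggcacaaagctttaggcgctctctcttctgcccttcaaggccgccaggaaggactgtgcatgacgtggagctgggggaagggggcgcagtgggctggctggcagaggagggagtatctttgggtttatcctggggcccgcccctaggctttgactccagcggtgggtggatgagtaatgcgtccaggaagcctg
GGAATG or its complement was found in the Col3a1 and Timp1 promoters and in 14.7% of the 32851 promoters in the reference table. CAGAC or its complement was found in the Thbs2, Col1a2 and Col3a1 promoters and in 49.6% of all promoters, and the CCAAT box was found in the Thbs2, Col1a2 and Timp1 promoters and in 37.4%. TATAAA or its complement was found in the Thbs2 and Col3a1 promoters and in 13.6% of all promoters. TGANTCA (7.81% of all promoters) and the CArG box (1.63%) were in none of these 4 windows. A match is a string of letters and not a measured binding site.

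The first question was which of these matrix genes differed between HFD and chow liver. Ccn2, Thbs1 and Mmp2 were higher in HFD at an adjusted p under 0.05, while Col3a1, Col1a2 and Lum, also higher in the table, did not pass. The test was a limma linear model with Benjamini-Hochberg adjustment over all 32451 genes, with p set to 1 for a gene outside the table. By that rule 3 of the 10 genes were called higher, beside 1.05% of all genes on the array called higher and 0.832% called lower. Among the 1488 genes with processed values, the share called higher was 23%, beside 3 of the 6. With each column centred on its median, which removes a shift of 0.21 between the HFD and chow columns, 185 genes were called higher and 605 lower, against 342 and 270 without centring. The table itself held 2.47% of all genes as higher in HFD and 2.12% as lower. Values are log2 values of the deposited table, and differences are HFD minus chow.

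Ccn2 encodes connective tissue growth factor, a matricellular protein that TGF-beta and YAP induce. It had values of 10.94, 10.90 and 10.87 in HFD replicates 1, 2 and 3, against 9.28, 9.19, 9.08 and 8.44 in chow replicates 1 to 4. The 3 HFD samples lay almost on 1 level, and chow replicate 4 lay below the other chow samples. The means were 10.90 ± 0.035 (SD, n = 3) in HFD and 8.999 ± 0.38 (SD, n = 4) in chow, a 3.74-fold difference. The log2 difference was 1.90 (SE 0.20, 95% interval 1.42 to 2.39), with an adjusted p of 0.0219 in limma. Without chow replicate 4 it was 1.72 with an SE of 0.10. The gap between the lowest HFD and the highest chow value was 1.59, and 97.4% of the genes in the table had a smaller gap.

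Thbs1 encodes thrombospondin 1. It had values of 6.59, 5.62 and 7.20 in HFD replicates 1, 2 and 3, against 3.33, 4.31, 4.69 and 3.84 in chow replicates 1 to 4. All 4 chow values lay below 4.93, the highest detection floor of the HFD arrays on the table's scale, while Thbs1 was well above background on all 3 HFD arrays. With the chow values raised to that floor, Thbs1 was 2.91-fold higher in HFD. The floor of the chow columns themselves is unknown, so this fold is not a sure minimum. The means in the table were 6.47 ± 0.80 (SD, n = 3) in HFD and 4.04 ± 0.59 (SD, n = 4) in chow. Its adjusted p was 0.0492 in limma, and 0.0749 with values below the floor raised to it. Thbs2, which encodes the related thrombospondin 2, was not in the table.

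Mmp2 encodes gelatinase A, which cuts denatured collagen and basement membrane collagen. It had values of 7.26, 6.89 and 6.50 in HFD replicates 1, 2 and 3, against 5.81, 5.91, 5.81 and 6.01 in chow replicates 1 to 4. The HFD samples were spread over a wider span than the chow samples, with HFD replicate 3 nearest to chow. The means were 6.88 ± 0.38 (SD, n = 3) in HFD and 5.89 ± 0.098 (SD, n = 4) in chow, and the log2 difference was 0.996 (SE 0.18), with an adjusted p of 0.0484 in limma. Mmp2 and Thbs1 lay close to the threshold. With centred columns their adjusted p-values in limma were 0.0501 and 0.0648.

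Col1a2 and Col3a1 encode chains of the fibrillar collagens of types I and III. Col1a2 had values of 13.54, 12.93 and 12.01 in HFD replicates 1, 2 and 3, against 11.34, 11.22, 11.44 and 11.45 in chow replicates 1 to 4. Col3a1 had values of 12.13, 11.76 and 10.77 in the same HFD samples, against 9.76, 9.81, 10.10 and 10.12 in the chow samples. For both collagens HFD replicate 1 was the highest and HFD replicate 3 the lowest HFD sample, while the chow samples lay close together. The Col1a2 means were 12.83 ± 0.77 (SD, n = 3) in HFD and 11.36 ± 0.11 (SD, n = 4) in chow, and the log2 difference was 1.46 (SE 0.33), with an adjusted p of 0.0742 in limma. The Col3a1 means were 11.55 ± 0.70 (SD, n = 3) in HFD and 9.95 ± 0.19 (SD, n = 4) in chow, and the log2 difference was 1.61 (SE 0.31), with an adjusted p of 0.0549 in limma. Neither gene passed.

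Lum encodes lumican, a small leucine-rich proteoglycan that binds collagen fibrils. It had values of 11.17, 10.74 and 10.15 in HFD replicates 1, 2 and 3, against 9.81, 9.70, 9.58 and 9.76 in chow replicates 1 to 4. The order of the HFD samples was that of the 2 collagens. The means were 10.69 ± 0.51 (SD, n = 3) in HFD and 9.71 ± 0.10 (SD, n = 4) in chow, and the log2 difference was 0.97 (SE 0.23), which missed the threshold with an adjusted p of 0.0832 in limma. Its gap of 0.34 between the groups was the smallest among the 6 genes, and 36% of the genes in the table had a smaller one.

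**Figure D1:**
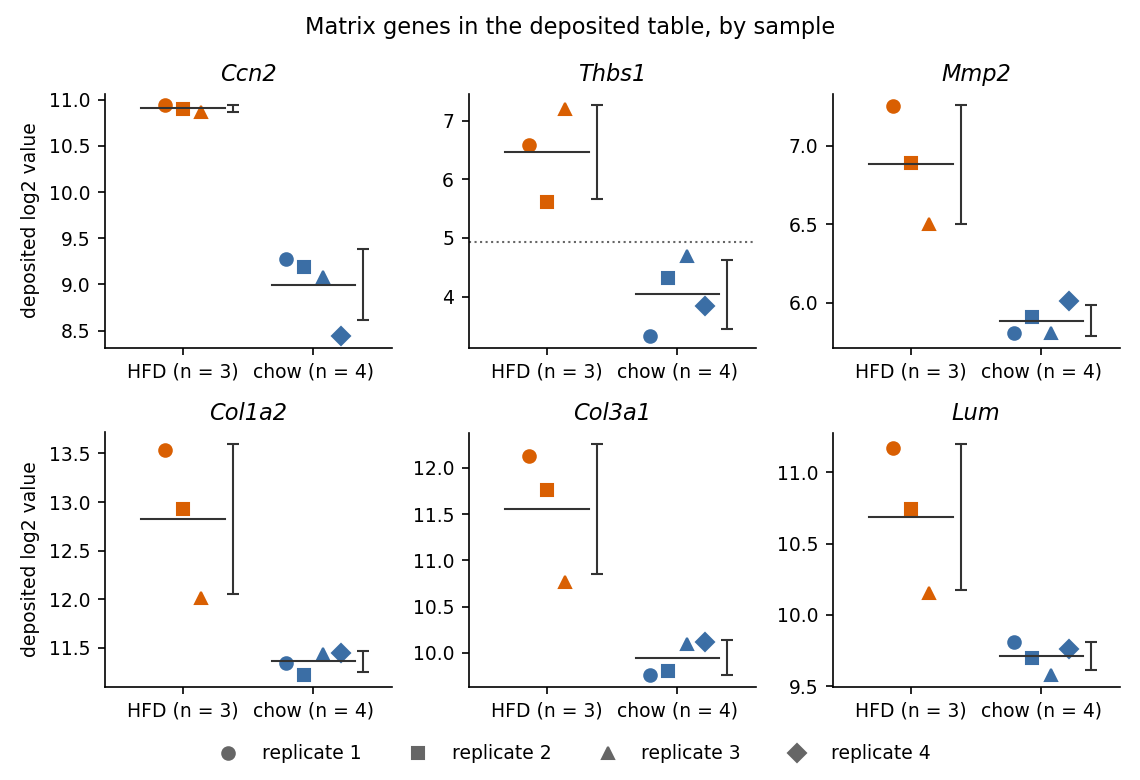
Deposited log2 values (vertical axes, each with its own range) of the 6 genes in the table, by sample, for HFD (left, n = 3) and chow (right, n = 4), with a line at the group mean and an error bar of 1 SD. The HFD values of Ccn2 lie between 10.87 and 10.94, and those of Col1a2 between 12.01 and 13.54. The dotted line in the Thbs1 panel is the highest detection floor of the HFD arrays, 4.93.

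The calls changed when single samples were left out. In fits without an HFD sample, the variance that limma moderates toward was estimated again from the remaining HFD arrays. Those fits thus differ in more than the sample's values. Without HFD replicate 2, Thbs1 had a log2 difference of 2.85 (SE 0.41) and an adjusted p of 0.145 in limma. With all samples these were 2.43 (SE 0.44) and 0.0492. Without HFD replicate 3, 5 of the 6 genes in the table were called higher: Col1a2 (log2 difference 1.87, adjusted p = 0.0195 in limma), Col3a1 (1.998, adjusted p = 0.0154), Lum (1.24, adjusted p = 0.0271), Mmp2 and Ccn2. Thbs1 then missed the threshold, at an adjusted p of 0.102 in limma. The count was 0 without chow replicate 1, chow replicate 3 or HFD replicate 2. It was 1 (Ccn2) without chow replicate 2, chow replicate 4 or HFD replicate 1. In each of these limma fits all 1488 genes in the table had an unadjusted p under 0.05, so the same result for the 6 does not set them apart. The calls over all genes moved with the sample left out as well: 493 genes, 265 of them higher, were called without HFD replicate 3. Leaving out HFD replicate 1 gave 166 genes, and leaving out HFD replicate 2 gave 8. Without chow replicates 1, 2, 3 and 4 the counts were 0, 99, 11 and 3 genes, against 612 with all samples. Across the 7 fits the log2 differences of the 6 genes lay between 0.73 for Lum without HFD replicate 1 and 2.85 for Thbs1 without HFD replicate 2, and their sign was fixed by the selection of the table.

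The SD over the HFD samples was larger than that over the chow samples for 5 of the 6 genes, against 56.7% of the genes in the table. The HFD SD over the chow SD was 7.18 for Col1a2, 5.12 for Lum, 3.88 for Mmp2, 3.72 for Col3a1 and 1.35 for Thbs1, and the median over the table was 1.16. Of the genes in the table, 0.874% had a larger ratio than Col1a2. Ccn2 had a ratio of 0.0923, and 99.3% of the genes in the table had a larger one. These ratios rest on 3 and 4 samples and were not tested.

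The 4 genes outside the table were measured on the HFD arrays, as were the other 6, on a scale of log2 signal minus the array's 75th percentile. All 11 probes were well above background on all 3 HFD arrays. Levels of different probes cannot be set against each other, so each gene is described by its differences between arrays.

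Timp1, which encodes the inhibitor TIMP-1, a secreted protein long used as a serum marker of fibrosis, had the widest spread of the 10 genes. Its signal was -0.09, -1.27 and -2.25 in HFD replicates 1, 2 and 3, a 4.47-fold difference between the highest and the lowest array. Of 17613 genes well above background on all 3 HFD arrays, 0.556% had a larger range. Col1a1, which encodes the other chain of type I collagen, had 1.41, 0.72 and -0.41 in HFD replicates 1, 2 and 3, a 3.55-fold range. Of the same genes, 1.12% had a larger range than Col1a1.

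Loxl1 encodes a lysyl oxidase that crosslinks elastin and collagen. Its brighter probe gave -1.14, -2.04 and -2.50 in HFD replicates 1, 2 and 3, and its second probe gave -2.81, -4.02 and -4.26. Both probes were highest on HFD replicate 1 and lowest on HFD replicate 3, with ranges of 1.36 and 1.45. Thbs2 had -3.12, -3.45 and -3.95 in the same order of samples, a range of 0.83. Its place among the arrays was that of Timp1, Col1a1 and Loxl1.

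The HFD arrays ranked most of these genes alike. For 9 of the 10 genes the highest array was HFD replicate 1 and the lowest HFD replicate 3, an order that 19% of all detected genes had. Thbs1 was the exception, and Ccn2 had the order by a range of 0.03 alone. HFD replicate 3 was the lowest array for 9 of 10 genes, against 30.7% of all detected genes, and 6 of 10 spanned at least 2-fold, against 8.5%. The median difference of HFD replicate 3 from the mean of HFD replicates 1 and 2 was -0.84 over the 10 genes and 0.03 over all detected genes. These are counts over genes of 3 samples, and they say nothing of the diet.

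A pair of genes stood apart in the spread over the HFD arrays. Thbs1 had -3.03, -4.02 and -2.45 in HFD replicates 1, 2 and 3, so that HFD replicate 3 was the highest array and HFD replicate 2 the lowest. Its difference between HFD replicate 3 and the mean of the other HFD arrays was 1.07, and 0.937% of detected genes had a higher one. Ccn2 had 1.21, 1.19 and 1.18 in HFD replicates 1, 2 and 3, a range of 0.03, and 99.1% of detected genes had a larger range. Ccn2 kept the order of the collagens only by differences of this size, and under normexp background correction its lowest array was HFD replicate 2. The range of Thbs1 was 0.97 under that correction, against 1.56, and that of Thbs2 was 0.55.

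**Figure D2:**
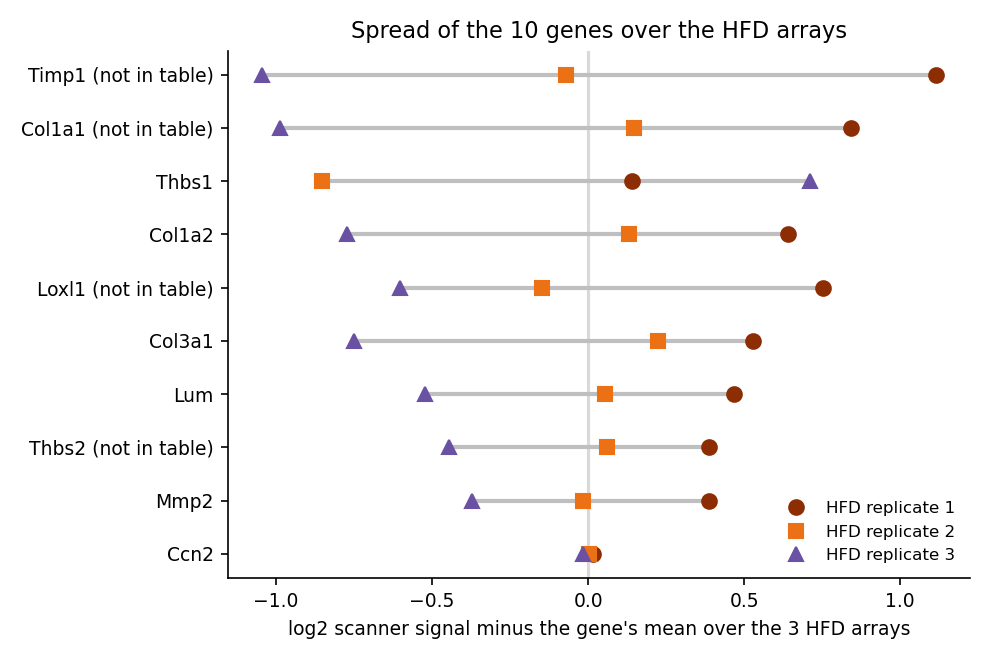
Log2 scanner signal of each of the 10 genes on HFD replicates 1, 2 and 3, minus that gene's mean over the 3 arrays (horizontal axis), with the brighter probe of Loxl1. HFD replicate 1 lies at the right end and HFD replicate 3 at the left end of 9 genes, from the 4.47-fold range of Timp1 to the 0.03 log2 range of Ccn2, and Thbs1 has another order.

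**Figure D3:**
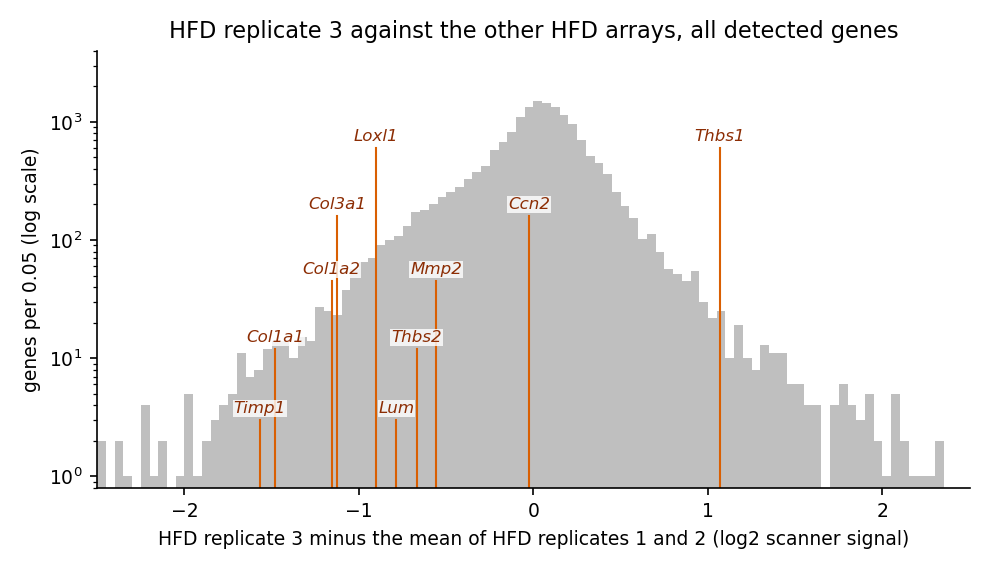
Histogram, with a log vertical axis, of HFD replicate 3 minus the mean of HFD replicates 1 and 2 (log2 scanner signal) for 17613 genes well above background on all 3 HFD arrays, with the 10 genes marked. 22 genes beyond 2.5 in either direction are not drawn. Timp1 and Col1a1 lie in the left tail, at -1.57 and -1.48, Ccn2 lies near 0 and Thbs1 lies at 1.07.

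Other genes of matrix biology were read from lists, given as counts called in the table beside the array's 1.05% higher and 0.832% lower. Of 16 measured collagen genes, 3 were in the table and 1, Col14a1 (log2 difference 1.03, SE 0.14), was called higher. Of 28 matricellular and glycoprotein genes, 7 were in the table, with 5 called higher and 1 lower. Beside Ccn2 and Thbs1 these were Fbln2 (1.18), Postn (1.51) and Fbln5 (0.98), which encode 2 fibulins and periostin. The 1 called lower was Ccn6, which was not well above background on any HFD array and below the highest HFD floor in 3 of 4 chow samples, so no fold is given. Of 7 small leucine-rich proteoglycans, 3 were in the table and Omd, which encodes osteomodulin, was called higher (1.89, SE 0.33). Of 26 matrix proteases and inhibitors, Mmp2 alone was in the table.

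Among ligands and receptors, 1 of 6 PDGF genes was in the table and called higher, Pdgfb (log2 difference 0.90, SE 0.15), which encodes a growth factor of stellate cells. Of 22 TGF-beta ligands, receptors and signalling genes, 1 was in the table, Inhba, which encodes an activin subunit. It was called lower, with values of 8.92, 8.22 and 8.99 in HFD replicates 1, 2 and 3, against 10.12, 10.35, 10.35 and 10.24 in chow replicates 1 to 4 (adjusted p = 0.0255 in limma). Of 13 genes of the YAP and TEAD pathway Ccn2 alone was in the table. None of 18 genes of collagen processing and crosslinking was called, and the one in the table was Adamts2 (0.92, adjusted p = 0.0562 in limma). None of 14 matrix receptors was called, and the one in the table was Itga8 (0.97, adjusted p = 0.0559 in limma).

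On the HFD arrays, 12 of 14 detected collagen genes and 16 of 20 detected matricellular and glycoprotein genes had their lowest value on HFD replicate 3, against 30.7% of all detected genes. The same held for 12 of 16 matrix proteases and inhibitors and for 11 of 12 matrix receptors. The shares were nearer to that of all genes for the YAP and TEAD pathway (4 of 12) and for the small leucine-rich proteoglycans (2 of 6). It was 4 of 5 for the PDGF genes, 9 of 17 for collagen processing and crosslinking, and 10 of 20 for the TGF-beta genes. The median difference of HFD replicate 3 from the mean of the other HFD arrays was -0.16 over the TGF-beta genes. The lists share the 10 genes in part, 3 of them among the collagens and 3 among the matricellular genes. They share other genes too, also with the cell type markers below, so their shares are not separate. Ccn1 is a matricellular and a YAP pathway gene, and Spp1 a matricellular gene and a recruited macrophage marker. Fbln2 is also a portal fibroblast marker and Pdgfrb also a stellate cell marker.

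Markers of several cell types also differed between the HFD arrays, and in bulk liver RNA fewer cells of a type and less RNA per cell cannot be told apart. Of 15 detected stellate cell markers, 10 were lowest on HFD replicate 3. Their summed level, relative to the 75th percentile, was 36.7, 31.5 and 24.8 in HFD replicates 1, 2 and 3. Most of that sum was Colec11 and Cygb. Gfap, 1 of the 16 stellate markers measured, was not well above background on any HFD array. Of 7 recruited macrophage markers, 7 were lowest on HFD replicate 3, with summed levels of 21.4, 14.1 and 9.78, mostly from Spp1 and Itgam. Of 9 Kupffer cell markers, 9 were highest on HFD replicate 1 and 4 were lowest on HFD replicate 3. The share of all genes highest on HFD replicate 1 was not computed. The summed levels of the Kupffer cell markers were 95.6, 41.9 and 44.1, and the largest part of each sum was Cd5l. HFD replicate 1 was highest and HFD replicate 3 lowest for 12 of 14 detected collagen genes, for 7 of 7 recruited macrophage markers, for 6 of 15 stellate cell markers and for 4 of 9 Kupffer cell markers, against 19% of all detected genes.

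Portal fibroblast markers (4 of 4 detected, with Eln and Gli1 not well above background on any HFD array), cholangiocyte markers (4 of 4) and platelet markers (4 of 4) were lowest on HFD replicate 3. All 3 detected mesothelial markers were too. Some of these markers were dim, such as Epcam at -3.85, -3.91 and -5.09 and Itga2b at -3.83, -4.77 and -4.86 in HFD replicates 1, 2 and 3. The marker lists were not read under normexp, and the part of background signal in their order was not tested. The platelet markers had summed levels of 2.09, 2.08 and 1.13 in HFD replicates 1, 2 and 3, mostly from Pf4. Thbs1, which platelets also store, was highest on HFD replicate 3. Of 7 endothelial markers 5 were lowest on HFD replicate 3, and of 5 lymphocyte markers 2 were. Of 5 adipose markers, Adipoq and Lep were not well above background on any HFD array, and Fabp4 alone was detected on all 3. Of 11 hepatocyte markers 0 were lowest on HFD replicate 3, against 30.7% of all detected genes. All 11 had their lowest value on HFD replicate 1, and the share of all genes that did was not computed. Their summed levels of 2071, 3204 and 2976 were highest on HFD replicate 2, so this was not the reverse order. The part of these markers in the spread of the 10 genes was not tested.

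**Figure D4:**
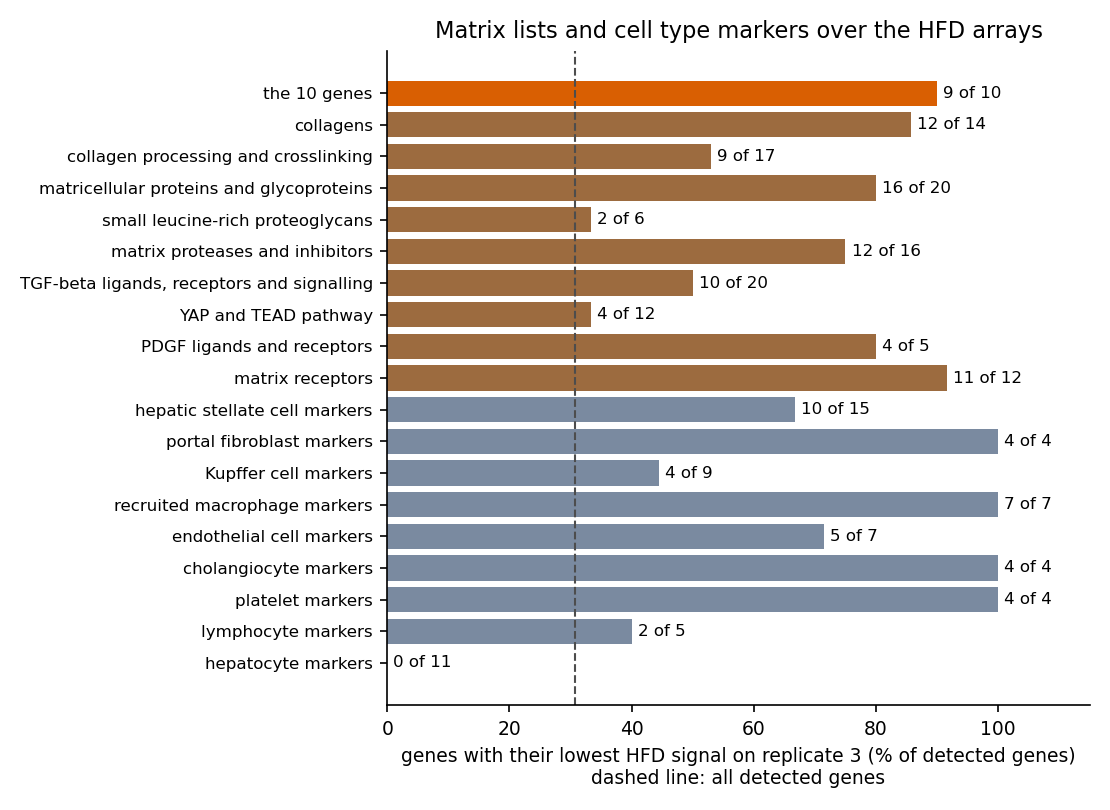
Share of detected genes with their lowest HFD signal on HFD replicate 3 (horizontal axis, %), for the 10 genes, 9 matrix lists and the cell type marker lists with at least 4 genes well above background on all 3 HFD arrays. The dashed line is the 30.7% of all 17613 detected genes. The 10 genes (9 of 10) lie far to the right of it and the hepatocyte markers (0 of 11) at 0.

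In the HFD and chow comparison the marker lists had few genes in the table. Of the stellate cell markers 1 of 16, Colec11, was in the table, at 12.97 to 13.54 in HFD and 12.44 to 12.65 in chow, and it was not called. Of the portal fibroblast markers 2 of 6 were in the table, Fbln2 and Entpd2, with a log2 summed level of 10.55 to 11.53 in HFD and 9.89 to 10.26 in chow. Most of that sum was Entpd2. Of 7 measured recruited macrophage markers 4 were in the table, with a log2 summed level of 12.18 to 12.77 in HFD and 11.43 to 11.49 in chow. Most of this sum was Itgam, at 12.04 to 12.37 in HFD and 11.33 to 11.39 in chow. Gpnmb, Itgam and Ccr2 were called higher. The chow values lay below the highest HFD floor in 4 of 4 samples for Gpnmb and in 1 of 4 for Ccr2. The platelet marker Pf4 was at 9.41 to 10.47 in HFD and 8.76 to 9.097 in chow and was not called. Of the hepatocyte markers 3 were in the table, all lower, with a log2 summed level of 18.00 to 18.20 in HFD and 18.57 to 18.76 in chow. Serpina1a, which made up most of that sum, was called lower. No Kupffer cell, endothelial, cholangiocyte, lymphocyte, mesothelial or adipose marker was in the table. The part of these markers in the differences of Ccn2, Thbs1, Mmp2, Col1a2, Col3a1 and Lum was not tested.

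Ccn2, which had the largest gap between HFD and chow among the 6 genes, was also set beside all other genes of the table by the root mean square difference of their values over the 7 columns, each gene being centred on its own mean. The 3 genes nearest to it were Fabp2, an intestinal-type fatty acid binding protein (0.174), Adora1, an adenosine receptor (0.260), and Srebf1, a transcription factor of lipogenesis (0.262), against a median of 0.787 over the table. Fabp2 had values of 16.35, 16.21 and 16.33 in HFD replicates 1, 2 and 3, against 14.37, 14.76, 14.51 and 14.12 in chow replicates 1 to 4. Srebf1 had values of 10.56, 10.56 and 10.36 in the HFD samples, against 9.15, 8.93, 8.46 and 8.69 in the chow samples. In both genes the HFD samples lay close together, as they did for Ccn2, which the choice of genes near Ccn2 over these same columns favours. No collagen, metalloproteinase or thrombospondin was among these 3. Of those listed, only 3 collagens, Mmp2 and Thbs1 were among the 1488 genes in the table, so little can be read from this.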

How the data were processed

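Liver RNA was labelled with Cy3 and hybridised to 1-colour Agilent arrays, per the labels' protocols. Spot intensity values were deposited as scanner files, background-subtracted by Agilent Feature Extraction (10.7.3.1 per the file headers, 9.1 per the submitters' processing notes). A table of deposited log2 values covers 1615 probes, and how it was normalized and selected is not stated in these sources.

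Probes were named through RefSeq accessions in a table of assembly GRCm38.p6 (27234 of 39429 probes). Control spots and outlier-flagged spots were removed, repeated spots were averaged, and the brightest probe stood for a gene. No spot was saturated, and the number of arrays limits the precision. HFD scanner levels are log2 processed signals minus the array's 75th percentile. The table was fitted with limma 3.58.1 (R 4.3.3), moderating variances toward 0.0354 on 2.10 prior degrees of freedom, estimated over 19494 genes detected on 2 or more HFD arrays, with adjustment over 32451 genes. For a gene below the highest HFD floor in chow, the fold sets the HFD mean against chow values raised to that floor. The floor is the lowest value of table probes well above background on HFD replicate 1, the array with the high negative control signal. The floor of the chow columns is unknown. The test was two-sided. A run on simulated data adjusted over the table's genes only and did not copy the table's selection, so it does not vouch for the calls given here.

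The 10 genes and all lists were chosen with earlier results of these data known. Genes are named if they belong to the 10, if they are among up to 4 called genes of a list (otherwise its listed gene with the smallest p), or if they are among the 3 nearest to Ccn2. Marker genes were named beside these after their values were seen. Protein features were not computed.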

Additional observations from a re-analysis of the deposited data

Results flagged for a closer look

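The scanner files labelled chow, which were used in no comparison because they did not match the chow columns of the table, held signals well above background for 8 of the 10 genes in all 4 files. On the scale of log2 signal minus the array's 75th percentile, the means over these files were 5.63 for Ccn2, 3.93 for Thbs1, -0.045 for Mmp2, 1.12 for Col1a1, 3.91 for Col1a2, -3.64 for Col3a1, 3.30 for Timp1 and 1.40 for Loxl1. Lum and Thbs2 were not well above background in any of the 4 files. These values are given without a comparison.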

How the results depend on the processing

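In the table, 612 genes and 3 of the 10 (Ccn2, Thbs1 and Mmp2) were called. The counts were 1026 genes and 4 of the 10 with the prior taken from the table itself, 1488 genes and 6 of the 10 with adjustment over the table's genes only, and 1204 genes and 6 of the 10 with a variance trend. With values below the floor raised to it 455 genes and 1 of the 10 were called, and with columns centred on their median 790 genes and 1 of the 10. With the replicate number as a replicate block, 0 genes and 0 of the 10 were called in limma (1488 genes and 6 of the 10 at an unadjusted p under 0.05), in a fit with fewer residual degrees of freedom. Correlations of same-numbered deviations from the group means were -0.10, 0.14 and 0.028, against -0.16 to 0.14 for differently numbered samples. With so few samples they cannot settle whether the replicate numbers pair the samples. Leaving out 1 sample at a time gave 0 to 493 called genes and 0 to 5 of the 10, with 0 genes without chow replicate 1 (1488 at an unadjusted p under 0.05). Averaging the probes of a gene gave 636 genes and 3 of the 10. Over the HFD arrays the median range of the 10 genes was 1.32, and 0.46 to 1.13 without 1 array, lowest without HFD replicate 3. HFD replicate 3 was lowest for 9 of 10 genes under median scaling, quantile normalization and no filter on dim genes, and for 8 of 10 under normexp. In the same order of settings, the shares over all genes were 30.7%, 35.1%, 40.2% and 30.3%, against 30.7% in the main setting. The cause of these changes was not tested, apart from the fewer samples or genes, or the newly estimated prior, that a setting itself implies. Group sizes of 3 and 4 limit every call.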

Other observations

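Among the other matrix genes well above background on all 3 HFD arrays, chosen here after their values were seen, Mmp13, which encodes an interstitial collagenase, had the widest range. Its scanner signal, relative to the array's 75th percentile on the log2 scale, was -2.79, -4.20 and -5.82 in HFD replicates 1, 2 and 3. The dimmest spot well above background on HFD replicate 3 had a signal of 13.44, against a 75th percentile of 838.1. The lowest Mmp13 value thus lay near the floor, and the width of its range rests on it. Spp1, which encodes osteopontin, had 2.98, 1.81 and 0.93 in the same samples. Plat, which encodes tissue plasminogen activator, had -3.07, -4.09 and -4.86. All 3 had the array order of Timp1 and Col1a1.

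Omd had another order, with deposited log2 values of 9.09, 9.03 and 10.04 in HFD replicates 1, 2 and 3, against 7.11, 8.15, 7.396 and 7.34 in chow replicates 1 to 4. Like Thbs1, it was highest on HFD replicate 3. Col18a1, which encodes a basement membrane collagen of hepatocytes, had scanner signals of 5.45, 5.55 and 5.53 in the same HFD samples, a range of 0.098.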
